A study of Capra hircus with 6 samples.

Results

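The genes described here are 9 targets or regulators of the transcription factor p53: MDM2, MDM4, BTG2, GADD45A, SESN1, TIGAR, TP53INP1, ZMAT3, and PHLDA3. They were taken by symbol from a deposited table of 15944 genes, and all 9 were found in it. RNA-seq had been performed on dermal papilla cells of secondary hair follicles (SHF-DPCs) from wild type Capra hircus. The cells were primary cultures from scapular skin of healthy adult Albas cashmere goats aged 3 years, and they were grown in medium with serum. The ATRA-treated group (3 libraries) received all-trans retinoic acid, the vitamin A metabolite that activates retinoic acid receptors, at 100 µM for 24 h, whereas the control group (3 libraries) received medium without it. Only cultured cells of a single type were studied, without the epithelium that surrounds the papilla in the follicle, and a single dose and time were sequenced. The question addressed here was how the p53 pathway genes that act on growth arrest, repair, metabolism, and feedback stood in the treated cells.

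In the p53 pathway, damaged DNA or another stress stabilizes the p53 protein, which then binds the regulatory regions of its target genes and raises their transcription. MDM2 is a ubiquitin ligase that marks p53 for degradation and is itself a p53 target, so that the pair forms a negative feedback loop. MDM4 is a relative of MDM2 that binds p53 and blocks its activity. The other 7 genes are targets whose products slow the cell cycle, alter metabolism, or change the fate of messenger RNA. Several of them also respond to signals that do not pass through p53. In hair follicles, p53 has been linked to regression of the follicle at the end of the growth phase.

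Total counts ranged from 35532339 to 38012771 per library. The quasi-likelihood test of edgeR was applied to the 12588 genes that passed its expression filter, and a gene was called at an adjusted p under 0.05. Levels are given as normalized CPM, the counts relative to a library total that was scaled by TMM, and differences as the log₂ fold change (log₂FC) of the ATRA-treated group over the control group. The choice of scaling matters here, because the TMM factors were 0.842 to 0.851 in the control libraries and 1.165 to 1.197 in the ATRA libraries. The median log₂FC of all genes was 0.04 with TMM, 0.11 with upper-quartile scaling, and 0.52 with library size only, that is, without such factors. Of 13 dermal papilla and fibroblast markers, 9 were tested and all 9 were called lower with ATRA (8 with library size only). Their summed level was 86736 to 88571 CPM in the control libraries and 4457 to 4766 CPM in the ATRA libraries. PROM1, CORIN, and ALPL, which mark dermal papillae, held at most 1 count in any library. The summed markers of leukocytes were at 9.15 to 12.8 CPM in the control libraries and 41.2 to 44.03 CPM in the ATRA libraries, led by CD14. Those of keratinocytes (3.11 to 4.92 CPM against 5.26 to 5.95), endothelial cells (0.903 to 1.24 against 6.19 to 9.16), and melanocytes (3.802 to 4.296 against 1.97 to 2.34) stayed under 10 CPM in every library. Few of these markers were tested, namely 2 of 5 for leukocytes, 1 of 7 for keratinocytes, 3 of 5 for endothelial cells, and 1 of 5 for melanocytes. The endothelial sum with ATRA was mostly PECAM1, at 0 CPM in each control library and 5.60, 7.71, and 4.98 in the ATRA libraries. TEK was called higher, a call lost without ATRA replicate 1 or control replicate 3, and VWF was not called. In bulk samples, fewer cells of a type and less RNA per cell cannot be told apart, and the part of these markers in the results was not tested.

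All 9 genes passed the expression filter, and all 9 were called. MDM2, BTG2, GADD45A, SESN1, TP53INP1, and ZMAT3 were higher with ATRA (6 genes), whereas MDM4, TIGAR, and PHLDA3 were lower (3 genes). With library size only, TIGAR and PHLDA3 turned to higher, and MDM4 remained lower without passing the threshold, so that 7 genes were called higher and 0 lower. Of all genes tested, 40.9% were called higher and 38.7% lower, so being called was common in this comparison. These shares were 62.9% and 22.7% with library size only. The 3 control and the 3 ATRA libraries did not overlap for any of the 9 genes in normalized CPM, against 80.1% of all genes tested. The median log₂FC of the 9 genes was 0.85, beside 0.04 for all genes tested. At an absolute log₂FC above 1 and an unadjusted p under 0.05, BTG2 and MDM2 passed as higher (2 genes) and 0 genes as lower. Among all genes, 13.7% passed both limits as higher and 17.3% as lower. GADD45A and SESN1 stopped just short of 2-fold. With upper-quartile scaling, or with a filter of at least 1 CPM in 3 libraries, 4 genes passed, and with library size only 5 did. On leaving out any single library other than control replicate 1, 3 genes passed.

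**Figure D1:**
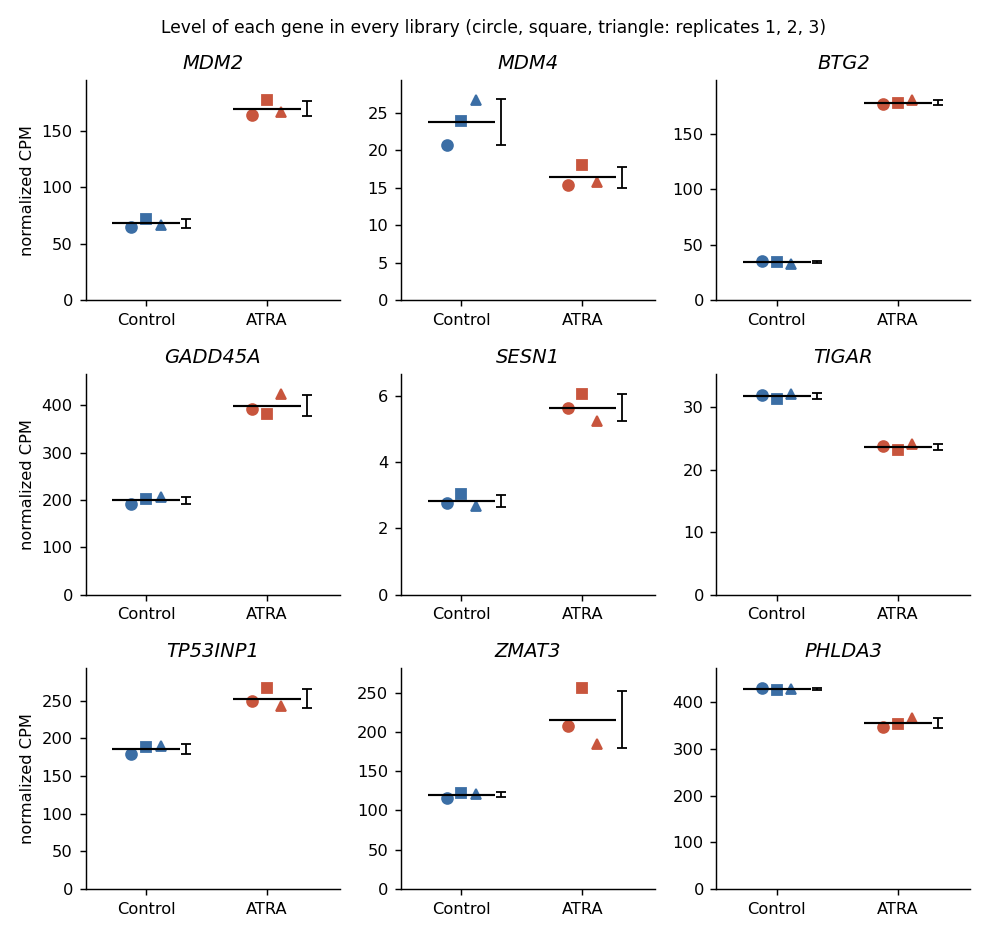
Level of the 9 genes in each library, in normalized CPM on an axis that starts at 0, with circles, squares, and triangles for replicates 1, 2, and 3. Horizontal lines are group means and bars are the SD (n = 3). The groups do not overlap in any panel. MDM4, TIGAR, and PHLDA3 lie lower with ATRA on this scale, while with library size only TIGAR and PHLDA3 turn to higher.

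The feedback pair moved apart. MDM2 had 65.0, 72.4, and 67.0 normalized CPM in the control libraries and 164, 177, and 167 in the ATRA libraries. Every ATRA library lay at more than 2-fold the highest control library. The log₂FC of MDM2 was 1.31 (standard error 0.0611, adjusted p = 4.72e-13), a rise of 2.49-fold, which ranked at percentile 90.4 of all genes tested. Gene counts pool the transcripts from the alternative promoters of MDM2, of which the internal promoter is the one that responds to p53.

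MDM4 had 20.7, 23.9, and 26.7 CPM in the control libraries and 15.4, 18.0, and 15.8 in the ATRA libraries. All 3 ATRA libraries were below the lowest control library, by a small margin for ATRA replicate 2. The log₂FC was -0.54 (standard error 0.0984, 95% confidence interval -0.74 to -0.33, adjusted p = 7.21e-05). As unscaled counts, the groups overlapped, at 642 to 858 in the control group and 653 to 794 with ATRA, and with library size only the log₂FC was -0.0573 (adjusted p = 0.609). Relative to the median of all genes, MDM4 stood at -0.57 under both scalings, a distance that a change of scaling leaves nearly fixed.

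The ratio of MDM2 to MDM4 counts within a library is free of any scaling between libraries. It was 3.14, 3.03, and 2.51 in the control libraries and 10.7, 9.85, and 10.6 in the ATRA libraries. The groups did not overlap, and the ratio rose 3.598-fold, a difference of 1.85 on the log2 scale against an SD of 0.174 in the control group and 0.0628 with ATRA. A two-sided exact permutation test gave p = 0.1, which is the lowest value that 3 libraries against 3 allow. In all, 4 such ratios were examined (adjusted p = 0.1 in the exact test). Separation of the groups was common, at 80.1% of all genes tested taken singly. Its share among ratios of other gene pairs was not examined, for this or the other ratios.

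Among the genes of growth arrest, BTG2 changed most. Its product binds the deadenylase complex that shortens the poly(A) tails of messenger RNA and holds back the entry into S phase. BTG2 had 35.1, 34.8, and 33.1 CPM in the control libraries and 176, 177, and 180.4 in the ATRA libraries. Both groups were tight, with a coefficient of variation of 3.04% in the control group and 1.23% with ATRA. The log₂FC was 2.37 (standard error 0.0594, adjusted p = 3.99e-17), a rise of 5.19-fold at percentile 95.9 of all genes.

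GADD45A encodes a small nuclear protein induced by DNA damage and growth arrest, which binds PCNA and inhibits the CDK1 kinase. It had 192, 202, and 206 CPM in the control libraries and 392, 382, and 424 in the ATRA libraries. The lowest ATRA library was well above the highest control library. Its log₂FC of 0.999 (standard error 0.0589, adjusted p = 1.71e-11) corresponds to a rise of 1.998-fold.

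SESN1 encodes a sestrin, a stress protein that restrains the growth kinase complex mTORC1 and limits oxidants. It was measured on the fewest reads of the 9 genes, 86, 98, and 86 counts in the control libraries and 243, 267, and 217 with ATRA. In normalized CPM this was 2.77, 3.03, and 2.68 against 5.62, 6.05, and 5.24. The log₂FC was 0.996, with the widest interval of the group (standard error 0.146, 95% confidence interval 0.69 to 1.303, adjusted p = 5.36e-06).

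TIGAR encodes a phosphatase that slows glycolysis and directs glucose to the pentose phosphate pathway, which supplies NADPH. Its unscaled counts were nearly level over all 6 libraries, at 992, 1010, and 1030 in the control group and 1028, 1018, and 994 with ATRA. In normalized CPM it had 32.0, 31.2, and 32.1 in the control libraries and 23.8, 23.1, and 24.02 with ATRA. The log₂FC was -0.43 (standard error 0.0716, adjusted p = 2.75e-05) with TMM, and it turned to 0.0520 (adjusted p = 0.490) with library size only. Relative to the median of all genes, TIGAR stood at -0.46 under both, a distance that hardly depends on the scaling.

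TP53INP1 and ZMAT3 act on p53 itself and on RNA. TP53INP1 encodes a stress-induced protein that aids the phosphorylation of p53 and takes part in autophagy. It had 179, 188, and 190.2 CPM in the control libraries and 249, 266, and 243 in the ATRA libraries, a separation of the groups by a rise of 1.36-fold (log₂FC 0.44, standard error 0.0564, adjusted p = 9.08e-07). ZMAT3 encodes a zinc finger protein that binds RNA and regulates splicing and transcript stability. It had 116, 122, and 121 CPM in the control libraries and 207, 256, and 184 in the ATRA libraries. The ATRA libraries spread more than those of any other of the 9 genes, with a coefficient of variation of 16.8%, and replicate 2 was the highest. The log₂FC of ZMAT3 was 0.85 (standard error 0.0890, adjusted p = 2.23e-07). Without ATRA replicate 2 it was 0.70, and without ATRA replicate 3 it was 0.94. Of the 9 genes, 5 had their highest ATRA value in replicate 2, which also differed most from the other libraries of its group over all genes (chi-square per degree of freedom 18.4 and 17.3, against 5.01 for the remaining pair).

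PHLDA3 encodes a small lipid-binding protein that competes with the kinase AKT for the membrane and so lowers AKT activity. It had 430.2, 427, and 429 CPM in the control libraries and 346, 353, and 368 in the ATRA libraries. The control libraries lay within a coefficient of variation of 0.419%. The log₂FC of -0.27 (standard error 0.0541, adjusted p = 0.000186) was the smallest change of the 9 genes. Its direction depended on the scaling, because the unscaled counts were higher with ATRA (14972 to 15560 against 13353 to 13800) and with library size only the log₂FC was 0.21 (adjusted p = 0.00126). Relative to the median of all genes it was -0.31 under both, a distance that again hardly depends on the scaling.

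**Figure D2:**
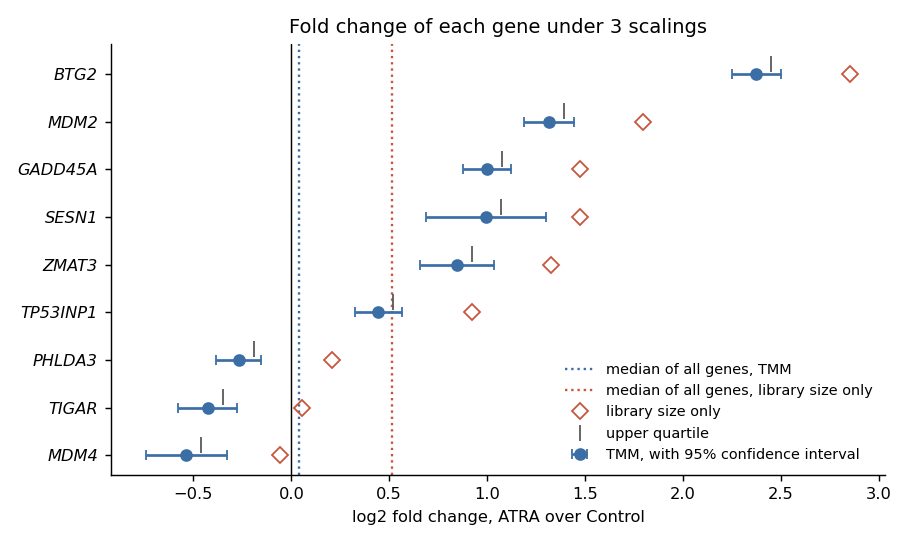
Log₂FC of the 9 genes with TMM (filled circles, bars for the 95% confidence interval), with upper-quartile scaling (ticks), and with library size only (diamonds). Dotted lines mark the median log₂FC of all genes tested, 0.04 with TMM and 0.52 with library size only. The 6 upper genes stay above 0 and above the median in each case, and MDM4 stays below both. TIGAR and PHLDA3 lie below 0 with TMM and above 0 with library size only. Positions relative to the median hardly depend on the scaling.

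Under all 5 scalings tried, 6 genes lay above the median of all genes and 3 lay below it. A change of scaling shifts every gene by nearly the same amount, so these positions could hardly have changed. In the deposited annotation, the GO terms nucleus and cytoplasm were each carried by 6 of the 9 genes. In the same annotation, 5 of them (MDM2, MDM4, GADD45A, SESN1, and ZMAT3) carried the KEGG p53 signaling pathway, and the other 4 did not. The GO term for the cellular response to DNA damage was carried by BTG2, TIGAR, and ZMAT3 (3 genes), which did not move in the same direction with TMM, since TIGAR was lower. Negative regulation of apoptotic process was also carried by 3 genes, BTG2, MDM2, and MDM4. Positive regulation of apoptotic process was carried by GADD45A and PHLDA3, and the term apoptotic process by TIGAR and ZMAT3 (2 genes each).

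Family members of the 9 genes were compared next, from a list of 17 relatives of which 15 were tested. Of these, 9 were called higher and 5 lower (all genes, 40.9% and 38.7%). With library size only, 11 were higher and 1 lower (all genes, 62.9% and 22.7%). The GADD45 family diverged. GADD45B, a relative induced by TGF-β and inflammatory signals, had 45.9, 49.9, and 46.6 CPM in the control libraries and 7.89, 8.21, and 8.12 with ATRA (log₂FC -2.56, standard error 0.0798, adjusted p = 1.14e-15). GADD45G stood at a log₂FC of -0.77 (adjusted p = 0.00251, standard error 0.209), which was -0.296 (adjusted p = 0.188) with library size only. The ratio of GADD45A to GADD45B counts was 4.17, 4.04, and 4.42 in the control libraries and 49.7, 46.5, and 52.2 in the ATRA libraries. This was an 11.7-fold rise without overlap (two-sided exact permutation p = 0.1, also after adjustment).

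The antiproliferative family of BTG2 showed a different picture. BTG1 (log₂FC 1.82, standard error 0.0745, adjusted p = 6.80e-14), BTG3 (log₂FC 1.906, standard error 0.0615, adjusted p = 1.87e-15), and TOB1 (log₂FC 1.75, standard error 0.0797, adjusted p = 3.44e-13) rose with BTG2. TOB2 fell, with a log₂FC of -0.59 (adjusted p = 2.81e-07, standard error 0.0689), which was -0.115 (adjusted p = 0.138) with library size only. The ratio of BTG2 to BTG1 counts was 0.769, 0.710, and 0.619 in the control libraries and 1.116, 0.938, and 1.03 with ATRA. The groups were apart, with a difference of 0.56 on the log2 scale (two-sided exact permutation p = 0.1, also after adjustment).

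In the sestrin family, SESN3 rose with SESN1 (log₂FC 1.08, standard error 0.111, adjusted p = 5.81e-08). SESN2 had 119, 105, and 113 CPM in the control libraries and 123, 126, and 132 with ATRA, a log₂FC of 0.18 (adjusted p = 0.0122). The call of SESN2 was lost without control replicate 2 (adjusted p = 0.0798) and without ATRA replicate 3 (adjusted p = 0.0781). The ratio of SESN1 to SESN2 counts was 0.0233, 0.0289, and 0.0237 in the control libraries and 0.0457, 0.0480, and 0.0398 with ATRA, a 1.76-fold rise without overlap (two-sided exact permutation p = 0.1, also after adjustment).

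Of the other relatives, PHLDA1 rose (log₂FC 0.67, adjusted p = 1.07e-09). PHLDA2 was barely detected, with 3 counts over the control libraries and 49 over the ATRA libraries, a ratio of 12.1 with a 95% counting interval of 3.91 to 60.8. TP53INP2 was at -0.14 (adjusted p = 0.0436), which turned to 0.34 with library size only, and its call was lost without control replicate 1, control replicate 3, or ATRA replicate 3 (adjusted p = 0.179, 0.121, and 0.0862). The phosphofructokinase relatives of TIGAR split, with PFKFB4 at 1.53 (adjusted p = 1.67e-11), PFKFB3 at -0.48 (adjusted p = 1.73e-06, and -0.00652 with library size only), and PFKFB2 not called (-0.13, adjusted p = 0.368), which was called higher with library size only (0.347, adjusted p = 0.0232). ZMAT2, which encodes a splicing factor, was at 0.35 (adjusted p = 0.000165).

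**Figure D3:**
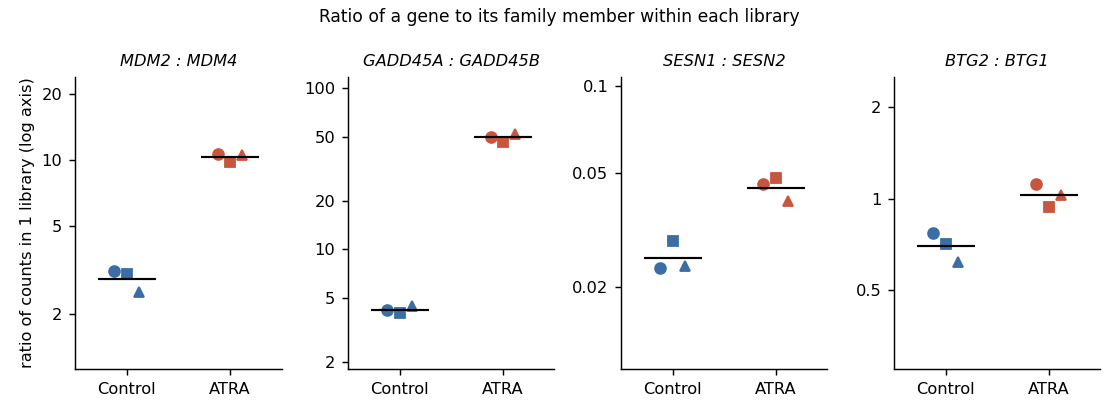
Ratio of the counts of each gene to those of its family member within the same library, on log axes that differ between panels, with circles, squares, and triangles for replicates 1, 2, and 3 and lines at the geometric mean. All 4 ratios are higher in each ATRA library than in each control library, from 1.47-fold for BTG2 over BTG1 to 11.7-fold for GADD45A over GADD45B. Taken singly, 80.1% of all genes tested did not overlap between the groups, and ratios of other gene pairs were not examined.

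A further list of 32 established p53 targets was examined, of which 28 were tested. Of these, 15 were called higher and 9 lower (all genes, 40.9% and 38.7%), and 4 were not called. With library size only, 19 were higher and 5 lower, beside 62.9% and 22.7% of all genes with that scaling. The median log₂FC of the list was 0.27, beside 0.04 for all genes. Past the 2-fold thresholds were 7 genes higher and 5 lower (all genes, 13.7% and 17.3%). CDKN1A, which encodes the cyclin-dependent kinase inhibitor p21, had 158, 151, and 156 CPM in the control libraries and 628, 602, and 618 in the ATRA libraries (log₂FC 1.99, standard error 0.0565, adjusted p = 2.74e-16). GDF15, a secreted stress cytokine, rose from 4.06, 3.68, and 4.92 CPM to 55.0, 50.2, and 50.4 (log₂FC 3.62, standard error 0.101). ACER2, a ceramidase of the Golgi, rose from 0.999, 1.21, and 0.903 CPM to 9.58, 11.5, and 9.47 (log₂FC 3.29, standard error 0.165). The proapoptotic BBC3 and the stress kinase PLK3 had a log₂FC of 1.58 and 1.33.

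Of the targets that fell, DRAM1, a lysosomal protein that promotes autophagy, went from 198, 206, and 203 CPM to 23.6, 24.3, and 21.7 (log₂FC -3.12, standard error 0.0644). DDB2, which recognizes ultraviolet damage in DNA, was at -1.26 (standard error 0.121). Some other targets tied to repair, picked once the values were known, were called higher. These were XPC, a partner of DDB2 in nucleotide excision repair, at 0.92, the ribonucleotide reductase subunit gene RRM2B at 0.82, and the polymerase gene POLK at 0.44. The repair helicase gene ASCC3 was not called (0.0360, adjusted p = 0.638), but was called higher with library size only (0.515, adjusted p = 4.97e-06). CMBL and the oxidoreductase gene TP53I3 had a log₂FC of -2.74 and -2.46. E2F7, a transcriptional repressor of dividing cells, had 106, 137, and 132 counts in the control libraries and 0, 1, and 0 with ATRA, a ratio of control to ATRA of 505 with a 95% counting interval of 90.2 to 20013. Each of the genes named here kept its direction under every scaling. Of all 28 tested targets, 4 others changed sign with library size only (FDXR, FUCA1, NINJ1, and PLK2).

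**Figure D4:**
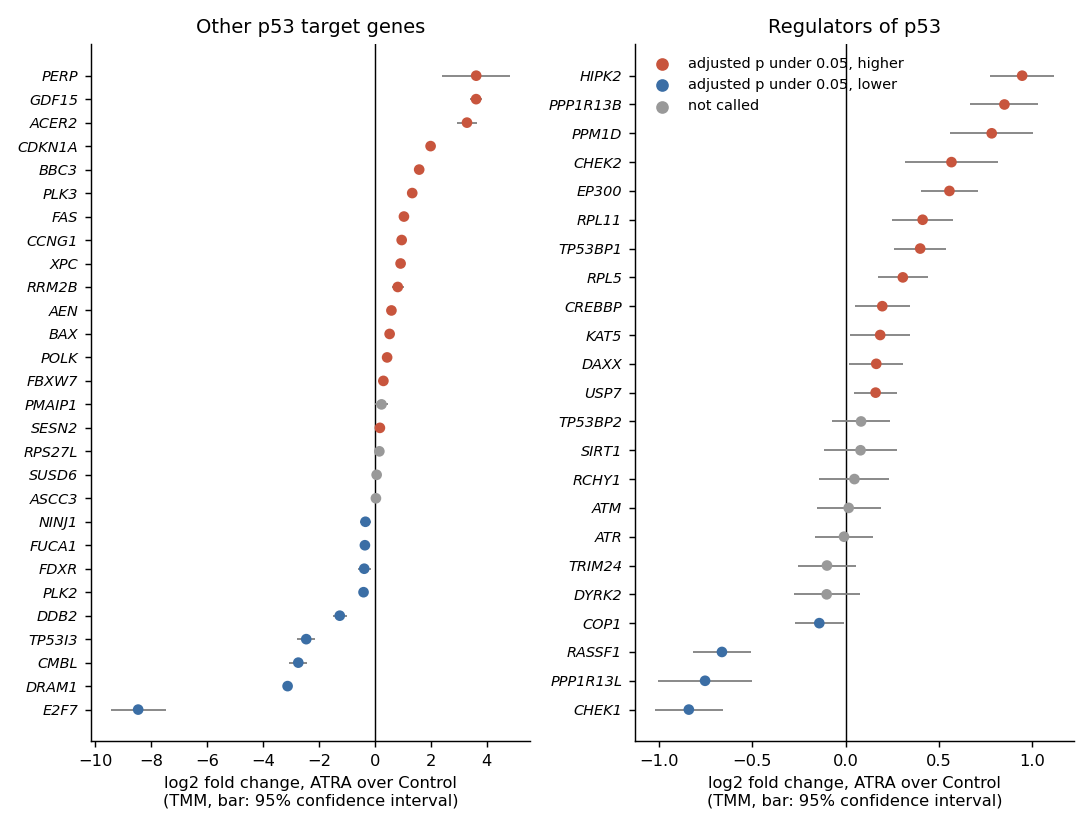
Log₂FC of the tested genes of the lists of other p53 targets (left, 28 genes) and regulators of p53 (right, 23 genes), with 95% confidence intervals and TMM scaling, on axes that differ between the panels. Red points were called higher, blue points lower, and grey points were not called. The targets run from GDF15 and PERP, the latter on 5 counts in the control libraries, to E2F7, whose position rests on 1 count in the ATRA libraries, and the regulators all lie between -0.84 and 0.95. With library size only, 4 of the targets and 4 of the regulators change sign.

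The upstream regulators moved less. Of 23 kinases, ligases, acetylases, and binding partners of p53, all tested, 12 were called higher, 4 lower, and 7 not. Among all genes, 40.9% were called higher and 38.7% lower. None of the regulators passed 2-fold (all genes, 13.7% higher and 17.3% lower), and their log₂FC ranged from -0.84 to 0.95. With library size only, 20 were called higher and 3 lower, where 62.9% and 22.7% of all genes were. The ends of this range, picked once the values were known, were CHEK1, a checkpoint kinase of S phase, at -0.84 (standard error 0.0867, adjusted p = 6.03e-08), and HIPK2, a kinase that phosphorylates p53, at 0.95 (standard error 0.0822, adjusted p = 5.41e-09). The damage kinase genes ATM (0.0169, adjusted p = 0.854) and ATR (-0.00805, adjusted p = 0.924), also picked afterwards, were not called, and both were positive and called with library size only. PPM1D, a phosphatase that acts on p53 and is itself a p53 target, was picked in the same way and was at 0.78 (adjusted p = 2.098e-06). Of the small changes, the calls of CREBBP, DAXX, KAT5, USP7, and COP1 were lost on leaving out 1 library, and DYRK2 and TRIM24 were called lower without ATRA replicate 2.

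The broader KEGG p53 signaling pathway of the deposited annotation, which also holds cyclins, apoptosis genes, and secreted inhibitors, had 71 tested genes. Of these, 21 were called higher and 37 lower (all genes, 40.9% and 38.7%). With library size only, 38 were higher and 25 lower, where the shares of all genes were 62.9% and 22.7%. Its median log₂FC was -0.27, which turned to 0.21 with library size only. The pathway contains 5 of the 9 genes described here. The median of all 9 genes was 0.85 with TMM and 1.33 with library size only.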

How the data were processed

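RNA-seq of 3 control and 3 ATRA-treated cultures was analysed. The authors selected poly(A) RNA, trimmed reads with fastp and TrimGalore, and deposited raw read counts per gene as whole numbers. The submitters' processing notes name HISAT2, featureCounts, and DESeq2. The genome build, annotation, and strand setting are not given in the sources used here, so no coordinates or sequences are printed.

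Genes were kept by filterByExpr, scaled by TMM, and tested two-sided by edgeR (robust quasi-likelihood fit, default prior count, no covariates), with Benjamini-Hochberg adjustment over all genes kept. The standard error is |log₂FC| divided by the root of F. Because count data need a count model, this test took the place of the t.test function in the paper's methods, which served as an alternative. Counting intervals are exact, at 95%, and cover counting error only. COP1 was matched to its older symbol RFWD2 after the table was seen. Per the methods, cells came from 3 animals, so that the groups may share animals, which the labels do not give. The labels give no difference of batch between the groups, and an effect of batch was not tested. The p-values of edgeR weigh each difference against the variation between these cultures, which is estimated for each gene partly from all genes kept. The 9 genes, the lists, and the tests were chosen with earlier results of these data known. Named were the 9 genes, CDKN1A, the relatives tested, and up to 5 targets or regulators per direction with the largest called changes past 2-fold, a mean CPM of at least 1, and no overlap. No regulator met this, and those named were picked once the values were known. Alternatives were DESeq2, other scalings, filters and prior counts, a replicate block, and each library left out. A version with TMM factors computed without the 100 most abundant genes was chosen after seeing the data. The fits were tested on simulated data with 200 genes changed evenly in both directions, which does not test the choice of scaling. Versions were edgeR 4.0.16 with limma 3.58.1 and DESeq2 1.42.0, run in R 4.3.3, and figures used matplotlib 3.10.9 in Python 3.11.15.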

Additional observations from a re-analysis of the deposited data

How the results depend on the processing

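The 9 genes kept direction and call in 141 of 144 gene-by-alternative fits. The alternative prior count changes only the log₂FC and not the test, so its calls could not differ. All 3 exceptions came with library size only, where PHLDA3 turned to 0.21 and TIGAR to 0.0520, and MDM4 was no longer called. That setting also gave 0 of the 9 genes called lower, 5 past 2-fold, a median log₂FC of 1.33, 5 other targets called lower, and 20 regulators called higher. Upper-quartile scaling gave 4 genes past 2-fold and a median of 0.92, and a filter of at least 1 CPM in 3 libraries gave 4 past 2-fold. The t.test function on log2(CPM + 1) gave a median of 0.79. Leaving out each library in turn gave medians from 0.70 to 0.94, the lowest without ATRA replicate 2 and the highest without ATRA replicate 3. It also gave 3 genes past 2-fold, except without control replicate 1, where 2 passed. With a pseudocount of 1 on log2 CPM, the difference was 3.41 for GADD45A over GADD45B and 0.62 for SESN1 over SESN2. Deviations of same-numbered libraries had correlations of 0.189, -0.00655, and -0.159, and the highest value was 0.246, for control replicate 3 with ATRA replicate 2. With 3 libraries per group, such values cannot decide whether libraries share an animal. The labels do not give pairs, so none were assumed. With the replicate block, MDM2 had a log₂FC of 1.32 and no call among the 9 genes changed. Depth limits SESN1 most, at 86 counts in the lowest library.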

Other observations

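GADD45A and SESN2 also respond to the amino acid and endoplasmic reticulum stress pathway of the transcription factor ATF4, whose genes were examined as a list of 12, all tested. Of these, 9 were called higher and 2 lower (all genes, 40.9% and 38.7%), with a median log₂FC of 0.81. Scaled by library size only, 11 were higher and 1 lower (all genes, 62.9% and 22.7%). DDIT4, which encodes an inhibitor of mTORC1, had the largest log₂FC at 3.41 (standard error 0.0710), and ASNS, which encodes asparagine synthetase, the lowest at -0.97 (standard error 0.0605). Both were picked once the values were known. The part of this pathway in the values of the 9 genes was not tested.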
